A study of Mus musculus with 8 samples.

Results

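Plasma cell genes were examined in whole aortas of atherosclerosis-prone mice with and without natriuretic peptide receptor C (NPRC), the product of Npr3. The 10 genes were Jchain, Igkc, Mzb1, Xbp1, Irf4, Prdm1, Pou2af1, Sdc1, Tnfrsf17 and Derl3, out of 48607 loci in the deposited gene table. They were picked by name, as known plasma cell genes, after their fold changes between the titled groups had been seen, so the values by title are a description and lend no support to a difference. Each gene matched 1 locus, 7 of them alone in it and 3 together with other genes. The study asked how deletion of NPRC alters atherosclerosis in ApoE-/- mice, which lack apolipoprotein E and develop arterial plaques. All mice lacked ApoE and had been fed a Western diet, for 12 weeks according to the methods of the study. The compared groups were ApoE-/- and NPRC-/-ApoE-/- mice. NPRC-/- mice carried a CRISPR frameshift in every tissue on a C57BL/6 background, and the age at sampling is not given in the sources used here.

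The titles give 5 ApoE-/- libraries, numbered 1 to 5, and 3 NPRC-/-ApoE-/- libraries, numbered 1 to 3. Libraries are named here by those titles. The methods of the study state 5 mice in each group, so the 8 libraries analysed here differ from that design. The genotype entered for each sample went against the title in 4 of the 8 libraries. It read NPRC-/-ApoE-/- for ApoE-/- 4 and 5, and ApoE-/- for NPRC-/-ApoE-/- 1 and 2, so both groupings are given. Npr3 itself did not separate the groups, with 1.69, 0.93, 0.62, 1.01 and 1.67 FPKM in ApoE-/- 1 to 5 and 1.18, 1.39 and 1.13 FPKM in NPRC-/-ApoE-/- 1 to 3. FPKM counts fragments per kilobase of transcript and is scaled to library size. A frameshift need not lower the RNA, so its level does not check either label. The libraries held 62969165 to 86693276 counts each, and every pair differed by more than sampling noise. Summed FPKM of 6 smooth muscle markers was 1300 to 2890 and that of 5 endothelial markers 74.8 to 85.8, so the defining markers of the aorta were present in every library.

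Plasma cells are the antibody-secreting end stage of B cells. Irf4 and Prdm1 (encoding BLIMP-1) switch off the B cell programme, and Xbp1 enlarges the endoplasmic reticulum for secretion. Antibody itself is made from heavy chains and kappa or lambda light chains, and the J chain links IgM or IgA into polymers. In atherosclerosis, plasma cells and antibody are found in the adventitia around the vessel and in lymphoid aggregates beside plaques.

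Jchain, the Igkc locus, the heavy chain locus and the Iglc1 and Iglc3 locus, which make up the antibody, were high in ApoE-/- 2, 3 and 4 and low in the other 5 libraries, while the antibody rows Ighg3, Iglc2 and Ighe did not follow this order. Among genes that plasma cells share with other cells, Xbp1 and Irf4 varied much less, by 2.21 and 3.62 times between lowest and highest library. Sdc1 and Prdm1, also shared with other cells, varied by 7.93 and 5.63 times, and Derl3 by 2.76 times. Among the 10 genes, ApoE-/- 2, 3 and 4 were each among the 3 highest libraries for 9, and NPRC-/-ApoE-/- 2 was the lowest for 5. The measurements are of bulk tissue, in which fewer plasma cells and less RNA per cell cannot be told apart.

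**Figure D1:**
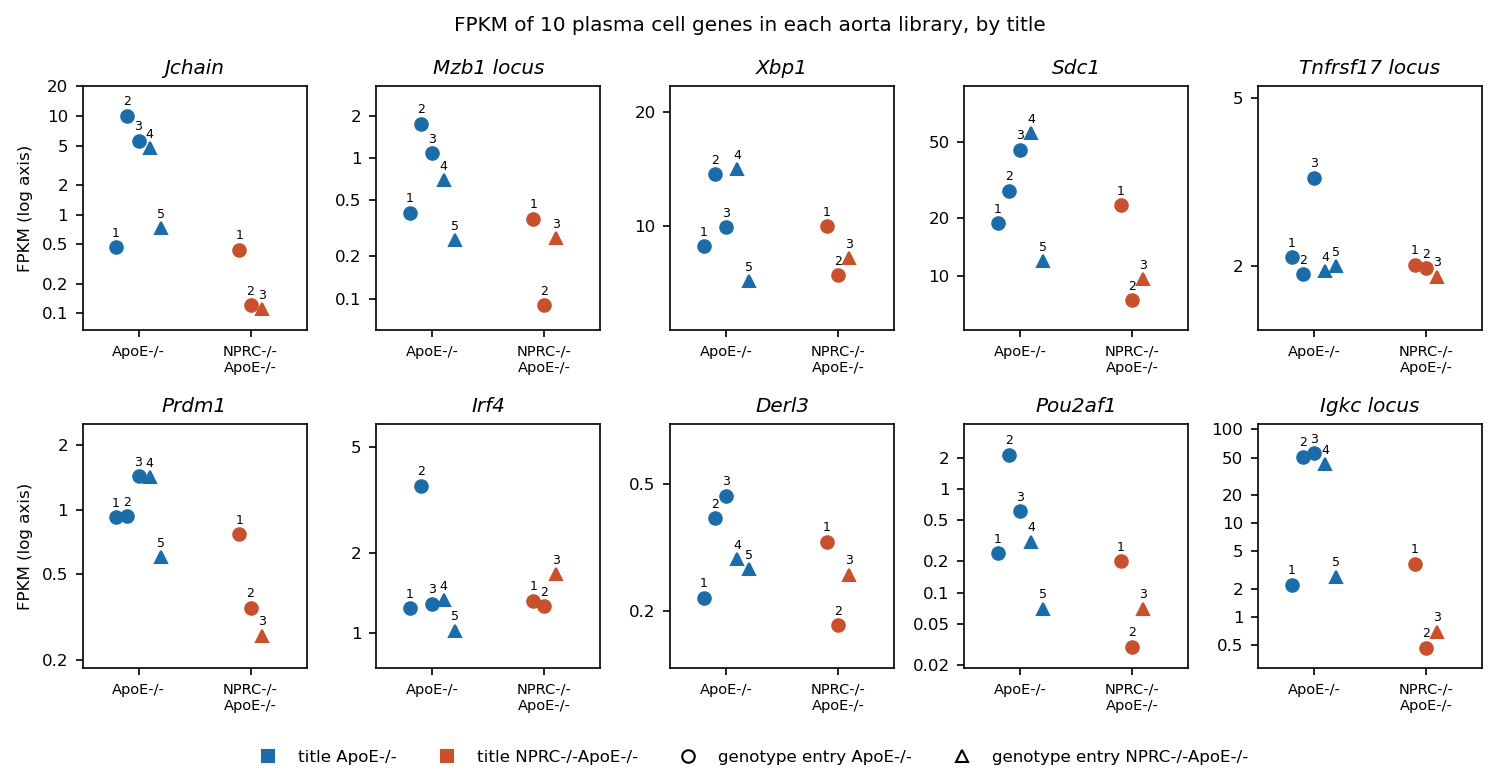
FPKM of each of the 10 plasma cell genes in the 8 aorta libraries, on log axes that differ between panels. Each point is 1 library with its number, coloured by title and shaped by genotype entry, and Jchain and the Igkc locus are far higher in ApoE-/- 2, 3 and 4 than in the other 5 libraries.

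Jchain (chromosome 5 from 88519809 to 88527891, minus strand) encodes the J chain that joins antibody monomers. Its level was 0.47, 10.00, 5.59, 4.73 and 0.73 FPKM in ApoE-/- 1 to 5 and 0.44, 0.12 and 0.11 FPKM in NPRC-/-ApoE-/- 1 to 3. The underlying counts were 117, 2024, 1389, 1191 and 171, and then 116, 25 and 30. ApoE-/- 2, 3 and 4 stood high, and ApoE-/- 1 and 5 lay close to NPRC-/-ApoE-/- 1. Jchain was the only one of the 10 genes whose titled groups did not overlap, and the gap between 0.47 and 0.44 FPKM was narrow. The group means were 4.3 ± 3.93 FPKM (SD, n = 5) and 0.223 ± 0.188 FPKM (SD, n = 3). Jchain was lower in the libraries titled NPRC-/-ApoE-/- by a log2 fold change of -4.24 ± 1.14 (SE, 95% interval -6.83 to -1.65). That change did not pass correction over the 20506 loci tested (Benjamini-Hochberg adjusted p = 0.26, edgeR's quasi-likelihood test). Over the alternative settings the adjusted p ranged from 0.0049 with DESeq2 to 1 with the genotype entry. Jchain reached the abundance filter of 1 FPKM in 3 libraries only through ApoE-/- 2, 3 and 4, the libraries in which it was high.

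Igkc encodes the constant region of the kappa light chain, which most mouse antibodies carry. The deposited locus runs over 11 gene names from variable segments to Igkc (chromosome 6 from 70355852 to 70726966, plus strand), while the annotated Igkc gene covers 70726435 to 70726966. Its level was 2.2, 50.85, 55.9, 42.21 and 2.7 FPKM in ApoE-/- 1 to 5 and 3.68, 0.47 and 0.7 FPKM in NPRC-/-ApoE-/- 1 to 3. The same 3 libraries stood high as for Jchain, but here the titled groups overlapped, because NPRC-/-ApoE-/- 1 exceeded ApoE-/- 1 and 5. The highest library had 123 times the scaled counts of the lowest, the widest range among the 10 genes, compared with 79.8 times for Jchain. The log2 fold change by title was -4.28 ± 1.37 (SE, adjusted p = 0.29, edgeR's quasi-likelihood test), and over the alternatives the adjusted p ranged from 0.021 to 1.

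Relative to each other, Jchain and kappa varied less than either alone. There were 20.9, 19.3, 9.81, 11 and 26.6 Jchain counts per 100 counts of the Igkc locus in ApoE-/- 1 to 5, and 11.7, 25.8 and 15.7 in NPRC-/-ApoE-/- 1 to 3. The ratios of the titled groups overlapped. The heavy chain locus, which holds Ighm, Ighd, Igha, Ighg1, Ighg2b and Ighg2c in 1 row (chromosome 12 from 113254830 to 113461457, minus strand), followed the same libraries. Its level was 1.48, 12.8, 11.6, 9.79 and 1.32 FPKM in ApoE-/- 1 to 5 and 1.37, 0.53 and 0.5 FPKM in NPRC-/-ApoE-/- 1 to 3, a log2 fold change of -3.23 ± 0.92 by title (SE, adjusted p = 0.27, edgeR's quasi-likelihood test). Isotypes inside that locus could not be separated, and whether counting used strand is not given in the sources used here.

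Ighg3, a row of its own that encodes the constant region of IgG3, behaved differently from the row of the heavy chain locus. It runs from 113356224 to 113361232 on the minus strand, inside the span of the heavy chain row. How reads were divided between these rows is not given in the sources used here. The Ighg3 row had 57, 2115, 4, 383 and 0 counts in ApoE-/- 1 to 5 and 34, 4 and 18 counts in NPRC-/-ApoE-/- 1 to 3. Per 100 counts of the heavy chain locus this was 10.3 in ApoE-/- 2 and 0.0175 in ApoE-/- 3, although these libraries had 20510 and 22793 heavy chain counts. ApoE-/- 3 was therefore rich in kappa and Jchain transcripts with next to no counts in the Ighg3 row. The locus of Iglc1 and Iglc3, lambda light chain constant regions, had 34, 617, 203, 339 and 27 counts in ApoE-/- 1 to 5 and 34, 12 and 29 counts in NPRC-/-ApoE-/- 1 to 3. The Iglc2 locus had 36, 283, 56, 9 and 13 counts, and then 42, 0 and 16. Ighe, the IgE constant region, had between 0 and 34 counts, with 34 in NPRC-/-ApoE-/- 1. Of 247 variable-segment loci of the heavy, kappa and lambda chains, 10 passed the filter, of which 5 were highest in ApoE-/- 2 and 5 in ApoE-/- 3. Of the 10, 9 passed only through libraries titled ApoE-/-, so they had to be lower in the other group and their calls are not counted.

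**Figure D2:**
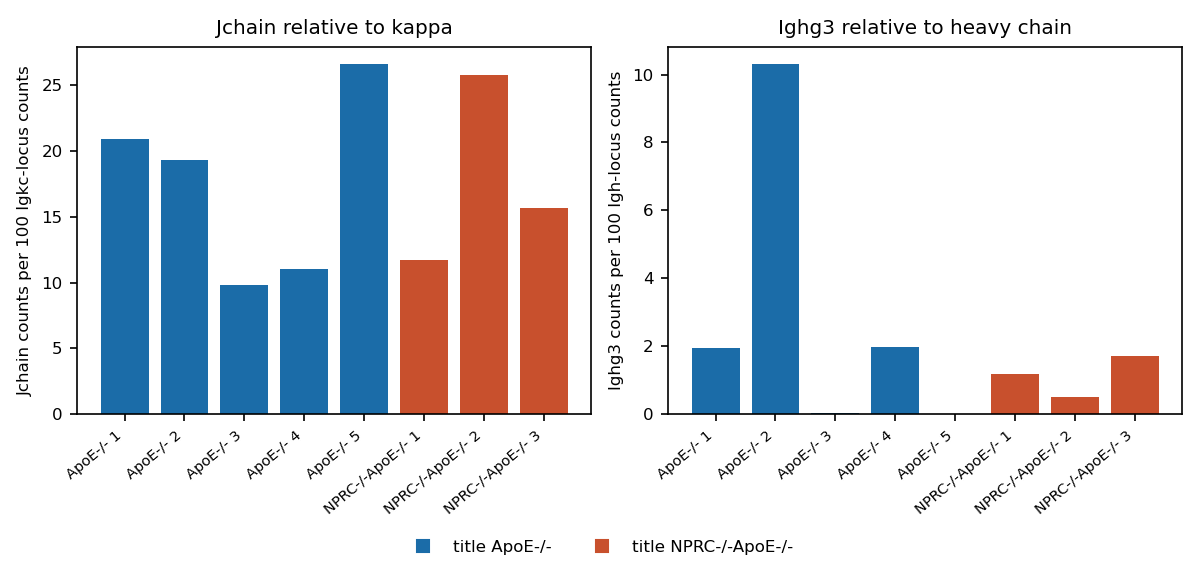
Left, Jchain counts per 100 counts of the Igkc locus in each library, and right, Ighg3 counts per 100 counts of the heavy chain locus, both on linear axes from 0 and coloured by title. Each bar is 1 library without an error bar, and Ighg3 reaches 10.3 in ApoE-/- 2 but 0.0175 in ApoE-/- 3 and 0 in ApoE-/- 5.

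Mzb1 encodes a chaperone of the endoplasmic reticulum that assists antibody assembly in B and plasma cells. It shared its row with Spata24 (chromosome 18 from 35647267 to 35662186, minus strand). The level of that row was 0.41, 1.76, 1.09, 0.7 and 0.26 FPKM in ApoE-/- 1 to 5 and 0.37, 0.09 and 0.27 FPKM in NPRC-/-ApoE-/- 1 to 3. ApoE-/- 2, 3 and 4 were again the highest, in the same order as for Jchain. Fitted without the abundance filter, because too few libraries reached it, the log2 fold change was -1.74 ± 0.67 by title (SE, adjusted p = 0.42, edgeR's quasi-likelihood test). Derl3 (chromosome 10 from 75893413 to 75895941, plus strand), which helps to remove misfolded proteins from the endoplasmic reticulum, was at 0.22, 0.39, 0.46, 0.29 and 0.27 FPKM in ApoE-/- 1 to 5 and 0.33, 0.18 and 0.26 FPKM in NPRC-/-ApoE-/- 1 to 3. Its titled groups overlapped, and its unfiltered log2 fold change was -0.35 ± 0.38 (SE).

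Among the transcription factors and coactivators, Pou2af1 came closest to the antibody genes. It encodes a B cell coactivator of the octamer-binding factors that drive immunoglobulin promoters. Its level (chromosome 9 from 51213708 to 51240079, plus strand) was 0.24, 2.13, 0.61, 0.31 and 0.07 FPKM in ApoE-/- 1 to 5 and 0.2, 0.03 and 0.07 FPKM in NPRC-/-ApoE-/- 1 to 3. ApoE-/- 2 stood well above all others, ApoE-/- 5 tied with NPRC-/-ApoE-/- 3, and the unfiltered log2 fold change was -2.73 ± 1.07 by title (SE, adjusted p = 0.43, edgeR's quasi-likelihood test). Without ApoE-/- 2 the fold change of Pou2af1 was -1.66 and no longer met the criterion of the study, a change above 2-fold or below 0.5-fold with an unadjusted p under 0.05. Mzb1 also lost the criterion without that library, at -1.32.

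Prdm1, the BLIMP-1 repressor that locks in the plasma cell fate and also acts in T cells and macrophages, lies on chromosome 10 from 44437177 to 44528501 on the minus strand. It was at 0.92, 0.93, 1.43, 1.41 and 0.6 FPKM in ApoE-/- 1 to 5 and 0.77, 0.35 and 0.26 FPKM in NPRC-/-ApoE-/- 1 to 3. The groups overlapped through ApoE-/- 5 and NPRC-/-ApoE-/- 1, and the unfiltered log2 fold change was -1.23 ± 0.43 (SE, adjusted p = 0.39, edgeR's quasi-likelihood test). Without NPRC-/-ApoE-/- 2 or 3, Mzb1, Prdm1 and Pou2af1 each fell short of the criterion, with log2 fold changes of -1.33, -1.04 and -2.27 without the former and -1.85, -0.94 and -2.51 without the latter. Xbp1 (chromosome 11 from 5520659 to 5525893, plus strand), the unfolded protein response factor present in all secretory cells, was at 8.86, 13.7, 9.93, 14.11 and 7.18 FPKM in ApoE-/- 1 to 5 and 10.0, 7.44 and 8.24 FPKM in NPRC-/-ApoE-/- 1 to 3. Xbp1 stayed at 7.44 FPKM where Jchain was at 0.12 FPKM, and its log2 fold change was -0.32 ± 0.25 (SE). Irf4 (chromosome 13 from 30748930 to 30766976, plus strand), a factor of plasma cells, T cells and myeloid cells, was at 1.24, 3.58, 1.29, 1.33 and 1.02 FPKM in ApoE-/- 1 to 5 and 1.32, 1.26 and 1.66 FPKM in NPRC-/-ApoE-/- 1 to 3. Only ApoE-/- 2 stood apart for Irf4, and the log2 fold change was -0.23 ± 0.40 with that library and 0.22 without it.

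Of the surface proteins, Sdc1 encodes syndecan-1 (CD138), a heparan sulfate proteoglycan used to sort plasma cells that epithelial cells also carry. It lies on chromosome 12 from 8771092 to 8793715 on the plus strand. Its level was 18.86, 27.84, 45.68, 55.6 and 11.89 FPKM in ApoE-/- 1 to 5 and 23.44, 7.45 and 9.59 FPKM in NPRC-/-ApoE-/- 1 to 3. ApoE-/- 4 was the highest, and even the lowest library had more Sdc1 per length than Jchain in all but 1 library. The log2 fold change of Sdc1 was -1.27 ± 0.59 (SE, 95% interval -2.61 to 0.06, adjusted p = 0.38, edgeR's quasi-likelihood test), which missed the criterion of the study after filtering and met it without the filter. Without the filter, Sdc1 fell short again when ApoE-/- 2 (-1.34), 3 (-1.08) or 4 (-0.95) or NPRC-/-ApoE-/- 2 (-0.95) or 3 (-1.08) was left out. Tnfrsf17, which encodes BCMA, a survival receptor of plasma cells for APRIL and BAFF, shared its row with the far longer Snx29 (chromosome 16 from 11313812 to 11759281, plus strand), so its own level is not known. That row was at 2.1, 1.92, 3.24, 1.95 and 2 FPKM in ApoE-/- 1 to 5 and 2.02, 1.98 and 1.89 FPKM in NPRC-/-ApoE-/- 1 to 3, and only ApoE-/- 3 stood apart. Its log2 fold change was -0.18 ± 0.22 (SE) and 0.02 without ApoE-/- 3.

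**Figure D3:**
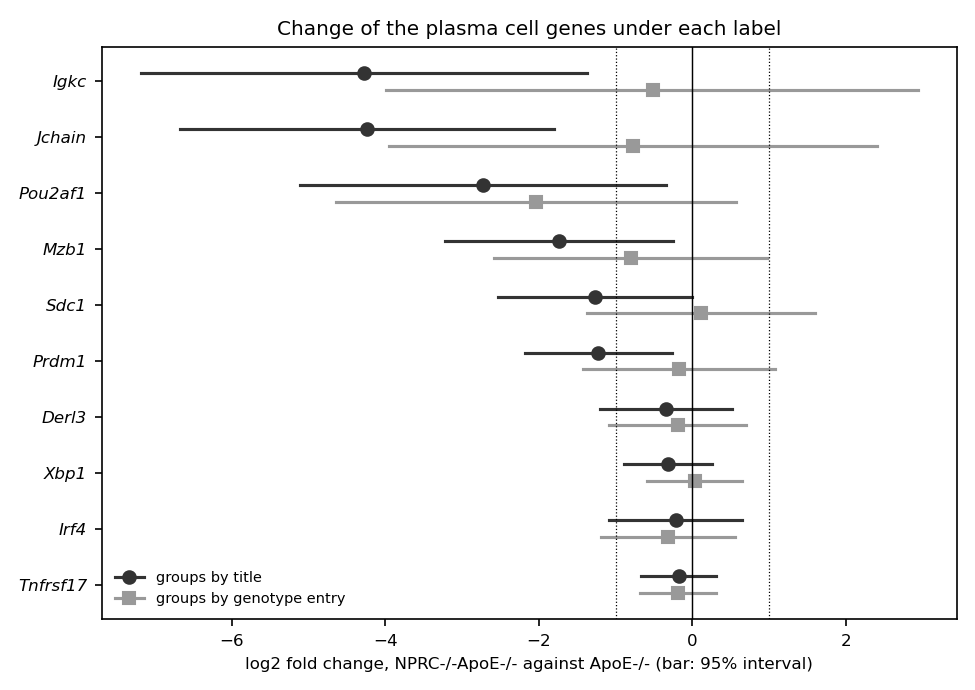
Log2 fold change of each plasma cell gene in NPRC-/-ApoE-/- against ApoE-/-, fitted without a filter, with libraries grouped by title (dark circles) and by genotype entry (grey squares). Bars are 95% intervals and dotted lines mark 2-fold, and the 10 changes by title all lie below 0 whereas the intervals by genotype entry all include 0.

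Counted by the criterion of the study and grouped by title, 2 of the 6 plasma cell genes that passed the filter were lower (Jchain and Igkc), where 2.39% of all filtered loci were. Without overlap between the titled groups, 1 of these 6 was lower, Jchain, against 3.66% of the filtered loci. Jchain passed the filter only through libraries titled ApoE-/-, in which it was high, so its place in both counts lends no support to a difference. In the fit without a filter, 6 of the 10 met the criterion (Jchain, Igkc, Mzb1, Pou2af1, Prdm1 and Sdc1), against 3.45% of 44689 loci that were lower. Again 1 of the 10 did not overlap, against 3.34% of these loci. As the genes were picked with these values known, nothing is read from the counts. The median log2 fold change of the 10 genes was -1.25 in the unfiltered fit, and that of all loci was -0.04. No plasma cell gene had an adjusted p under 0.05 by edgeR in either fit, and 0 of the 20506 loci did (smallest 0.053, edgeR's quasi-likelihood test). At an unadjusted p under 0.05 there were 2797 loci, and DESeq2 had 650 loci at an adjusted p under 0.05.

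Grouped by genotype entry, none of these genes met the criterion. Of the 6 filtered genes 0 met the criterion, where 0.263% of loci were lower, and of the 10 unfiltered genes 0 did, where 0.714% were lower. The fold changes by entry were -0.79 ± 1.49 for Jchain and -0.54 ± 1.63 for the Igkc locus on the log2 scale (SE). ApoE-/- 4, with high antibody transcripts, is entered as NPRC-/-ApoE-/-, and NPRC-/-ApoE-/- 2, with the lowest kappa level, is entered as ApoE-/-. Sdc1 and Xbp1 turned to 0.10 and 0.03 by genotype entry, whereas Pou2af1 kept a value of -2.04 ± 1.17 (SE). All 10 genes overlapped between the groups by entry, and their median was -0.26. The values between the groups thus depend on which label is used.

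Of 13 further plasma cell genes, 11 were tested, with a median log2 fold change of -0.29 by title. By the criterion 3 were lower and 0 higher by title, against 2.39% of all filtered loci that were lower. This list and those below were also chosen with earlier results known, so nothing is read from their counts. By genotype entry the median was -0.02 and 0 met the criterion, as for each list that follows. The 3 were Cd38, an ectoenzyme of many leukocytes (-1.02), Cxcr4, the homing receptor for CXCL12 (-1.31), and Tnfrsf13b, the BAFF and APRIL receptor TACI (-1.34). Their adjusted p was 0.32, 0.36 and 0.33 (edgeR's quasi-likelihood test). Tnfrsf13b was at 1.25, 2.61, 2.09, 1.89 and 0.88 FPKM in ApoE-/- 1 to 5 and 1.31, 0.36 and 0.39 FPKM in NPRC-/-ApoE-/- 1 to 3, again highest in ApoE-/- 2, 3 and 4. Txndc5, a disulfide isomerase and the most abundant of this list, had a log2 fold change of 0.01, and Slamf7, a receptor of plasma and NK cells, had -0.99. Of 21 folding and degradation genes of the endoplasmic reticulum, which XBP1 or ATF6 can activate, 20 were tested and 0 met the criterion. Their median was -0.16 by title and -0.03 by genotype entry, with Hspa5 (BiP) at -0.07, Hsp90b1 (GRP94) at -0.22 and Pdia4 at -0.21.

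Plasma cells depend on survival and homing signals from the cells around them. Of 10 such genes, 8 were tested, with all 8 values below 0 and a median log2 fold change of -0.95 by title, and 2 met the criterion, against 2.39% of all filtered loci that were lower. By genotype entry the median of the 8 was -0.08. The 2 were Il6, a plasma cell growth factor (-3.48 ± 1.15, SE), and Cxcl13, the chemokine that draws B cells into follicles (-2.33 ± 0.71, SE), with adjusted p of 0.29 and 0.28 (edgeR's quasi-likelihood test). Both reached the abundance filter only through libraries titled ApoE-/-, in which they were high, so their calls lend no support to a difference. Cxcl13 was at 0.99, 3.24, 1.35, 1.46 and 0.29 FPKM in ApoE-/- 1 to 5 and 0.47, 0.17 and 0.22 FPKM in NPRC-/-ApoE-/- 1 to 3. Cxcl12, the stromal ligand of CXCR4, had a log2 fold change of -0.94 ± 0.30 (SE, adjusted p = 0.29, edgeR's quasi-likelihood test), and Vcam1, an adhesion molecule of endothelium and stroma, had -0.96. The row of Tnfsf13 (APRIL) held 8 gene names with Cd68 among them, at -0.45, and says nothing of Tnfsf13 alone. That row is nevertheless among the tested values of this list, and it also serves as Cd68 among the macrophage markers. Without the filter 3 of the 10 survival and homing genes were lower by title, against 3.45% of all unfiltered loci.

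**Figure D4:**
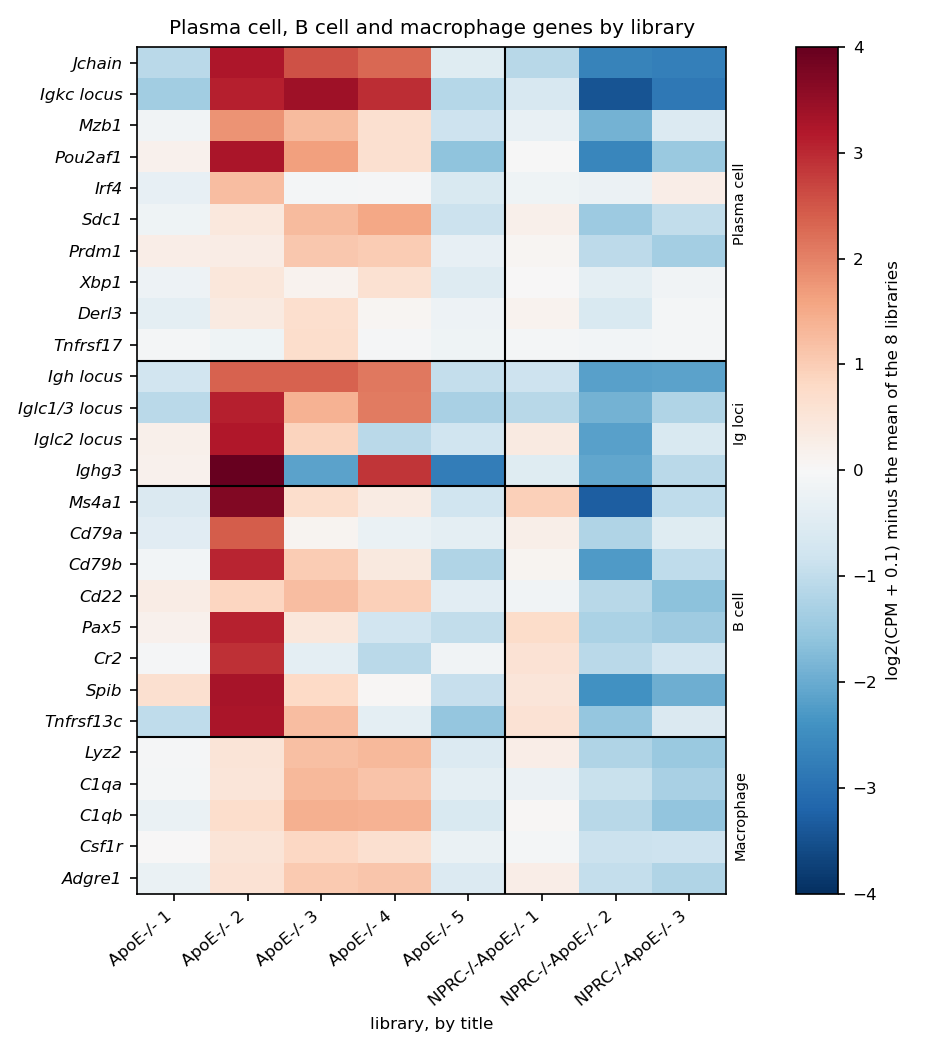
Log2(CPM + 0.1) of plasma cell, immunoglobulin, B cell and macrophage genes in each library, minus the mean of the 8 libraries, where CPM is counts scaled to library size and red is above the mean. The vertical line parts the titles, and Jchain and kappa are high in ApoE-/- 2, 3 and 4. Most B cell genes shown are highest in ApoE-/- 2, and Cd22 is highest in ApoE-/- 3. The immunoglobulin, B cell and macrophage rows are selections. Of all 18 B cell genes 14 were highest in ApoE-/- 2, and Ebf1, Bcl6 and Vpreb3, not shown, were not.

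Markers of other cells moved with some of these genes. Of 18 B cell genes, 14 had their highest library in ApoE-/- 2 and 2 in ApoE-/- 3. Ms4a1 (CD20) was at 0.07, 1.76, 0.18, 0.14 and 0.07 FPKM in ApoE-/- 1 to 5 and 0.24, 0 and 0.05 FPKM in NPRC-/-ApoE-/- 1 to 3. Cd79a, a signalling chain of the B cell receptor, was at 0.51, 4.07, 0.69, 0.52 and 0.54 FPKM, and then 0.81, 0.26 and 0.44 FPKM. Cd22, an inhibitory lectin, followed another order, with 2.47, 3.58, 4.18, 3.52 and 1.52 FPKM, and then 1.74, 0.88 and 0.56 FPKM. Summed over the 18 B cell genes, the level was 41.6 FPKM in ApoE-/- 2 and 13.4 to 18.6 FPKM in the other 7 libraries. Of these 18 genes 4 were tested and 1 was lower by the criterion, against 2.39% of all filtered loci. That gene was Cd22 (-1.54 ± 0.44, SE, adjusted p = 0.27, edgeR's quasi-likelihood test). The median log2 fold change of the 4 was -0.79 by title and -0.14 by genotype entry. Without the filter the 18 genes had a median of -1.46 by title, with 4 lower by the criterion, against 3.45% of all unfiltered loci. The most abundant of the list, Ebf1, which vascular stroma and fat also express, had its lowest value of 2.2 FPKM in ApoE-/- 2. Of 5 germinal centre genes 2 were tested and 0 met the criterion. Without the filter 2 of the 5 were lower by title, against the same 3.45%, with a median of -1.81.

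Macrophage, T cell and epithelial markers also differed between the libraries. Summed over 7 macrophage markers, the level was 934, 1430, 2080, 2190 and 695 FPKM in ApoE-/- 1 to 5 and 1110, 435 and 333 FPKM in NPRC-/-ApoE-/- 1 to 3, with its highest values in ApoE-/- 3 and 4 as for Sdc1 and Prdm1. C1qa and C1qb, complement genes of tissue macrophages, met the criterion (-1.37 and -1.45), against 2.39% of all filtered loci that were lower. The median of the 7 was -1.04 by title and -0.15 by genotype entry. The 7 T cell markers had a summed level of 4.8 to 9.9 FPKM by title in ApoE-/- and 3.17 to 6.18 FPKM in NPRC-/-ApoE-/-. By the criterion 1 of 3 tested was lower by title, against the same 2.39%. That gene was Cd4 (-1.56 ± 0.33, SE, adjusted p = 0.22, edgeR's quasi-likelihood test). By genotype entry Cd4 turned to 0.28 ± 0.57 (SE), and the median of the 3 went from -0.68 to 0.28. Mesothelial and epithelial markers, of which 1 was tested and 0 met the criterion, summed to 9.65 FPKM in ApoE-/- 2 and 2.4 to 3.54 FPKM elsewhere. Without the filter 1 of these 8 markers was lower by title. So were 2 of the 7 T cell and 3 of the 7 macrophage markers, against 3.45% of all unfiltered loci. White adipocyte markers summed to 65.6 to 308 FPKM, with the highest value in ApoE-/- 2, and 0 met the criterion. The 6 smooth muscle markers all lay above 0 by title (median 0.75, 0 by the criterion, and 0.17 by genotype entry), and the 5 endothelial markers had a median of -0.05. No gene of these lists was at 0 in all 8 libraries, and the part of these cells in the values of the plasma cell genes was not tested.

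Beside the immunoglobulin rows, the loci whose levels most resembled Jchain were of other kinds. Over the 8 libraries, Pearson's r of log2 CPM with Jchain was 0.989 for the heavy chain locus, 0.985 for Cryl1, a crystallin-related dehydrogenase, 0.981 for Tap2, a transporter of antigen peptides, 0.981 for a row with Srprb and Trf, and 0.978 for Pabpc1, the poly(A)-binding protein. Cryl1 was at 2.83, 4.07, 3.9, 3.57 and 3.1 FPKM in ApoE-/- 1 to 5 and 2.72, 2.06 and 2.04 FPKM in NPRC-/-ApoE-/- 1 to 3, so its range was far narrower than that of Jchain. These coefficients share libraries and scaling and are a description.

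Promoters were read from RefSeq on GRCm38.p6, which had an entry for 8 of the 10 genes, each with 250 bases before and 50 after the start. These windows were searched on both strands for the octamer ATGCAAAT (found in 1.74% of 32851 promoters), the XBP1 element UPRE, TGACGTGG (0.676%), the IRF pair GAAANNGAA (8.56%), and the endoplasmic reticulum stress element ERSE, CCAAT and CCACG 9 bases apart (0.119%). The UPRE was found in Pou2af1 from 61 to 54 bases before the start, an ERSE in Derl3 from 156 to 138 bases before it on the reverse strand, and an IRF pair in Tnfrsf17 from 100 to 92 bases before it on the reverse strand. The other 5 windows held none of these letters, and the octamer was in none of the 8. Shown 5′ to 3′ are the 250 bases before the start of Jchain, the gene whose titled groups did not overlap, and of Pou2af1 and Derl3, with the UPRE and the parts of the ERSE in capitals. These matches are letters in a window and do not show binding.
Jchain, chr5:88527898-88528147, strand minus: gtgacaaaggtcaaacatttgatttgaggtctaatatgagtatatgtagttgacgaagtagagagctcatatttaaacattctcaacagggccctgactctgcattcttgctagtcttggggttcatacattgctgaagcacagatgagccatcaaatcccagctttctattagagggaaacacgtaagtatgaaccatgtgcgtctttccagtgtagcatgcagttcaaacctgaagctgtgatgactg
Pou2af1, chr9:51213440-51213689, strand plus: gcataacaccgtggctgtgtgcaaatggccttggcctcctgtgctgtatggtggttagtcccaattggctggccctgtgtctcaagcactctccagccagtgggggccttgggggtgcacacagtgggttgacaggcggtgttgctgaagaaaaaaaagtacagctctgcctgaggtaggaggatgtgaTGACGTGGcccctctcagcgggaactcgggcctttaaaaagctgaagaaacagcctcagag
Derl3, chr10:75893148-75893397, strand plus: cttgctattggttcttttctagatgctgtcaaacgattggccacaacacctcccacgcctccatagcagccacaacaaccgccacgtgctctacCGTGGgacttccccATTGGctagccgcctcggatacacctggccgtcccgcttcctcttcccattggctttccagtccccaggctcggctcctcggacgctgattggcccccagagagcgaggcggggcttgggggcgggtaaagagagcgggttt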

How the data were processed

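Poly(A) RNA of 8 whole aortas was sequenced. Per the labels, reads were trimmed with cutadapt 1.9 and checked with FastQC, and the genome build was GRCm38. HISAT2 mapping and StringTie assembly followed, and the authors deposited unnormalized counts per assembled locus and FPKM. How counts were derived is not given in the sources used here.

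The 20506 of 48607 loci that reached 1 FPKM in 3 or more libraries were tested on counts with edgeR 4.0.16 in R 4.3.3 (TMM, quasi-likelihood test, Benjamini-Hochberg), 5 libraries against 3. A call needed a fold change over 2 or under 0.5 with an unadjusted p under 0.05. The 4 genes below the filter were fitted on the 44689 loci with a count. Alternatives used the genotype entry, DESeq2 1.42.0, limma 3.58.1, other scaling and filters, a replicate block and each library left out. Plasma cell genes and other lists were chosen with earlier results of these data known. From each list the 3 most abundant genes and, where at most 5 were called, the called ones were eligible for naming, and other named genes were picked after their values were seen. The results of 2 listed genes are not reported here. Code was tested on simulated data. The biological coefficient of variation was 0.327, and the 8 libraries limit precision. P-values set the difference between the groups against the spread between the samples within them.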

Additional observations from a re-analysis of the deposited data

Results flagged for a closer look

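The Tnfrsf17 row, which it shares with Snx29, had a log2 CPM of 5.85 in ApoE-/- 3, far from the others of its group. Among the 5 libraries titled ApoE-/- the nearest value was 5.11 and the lowest 4.96, so the gap took 0.835 of the range. Among the 5 libraries that are ApoE-/- by genotype entry the nearest was 5.07 and the gap took 0.879 of the range. Irf4 had a log2 CPM of 5.25 in ApoE-/- 2, against 3.93 for the nearest and 3.71 for the lowest of the 5 libraries that are ApoE-/- by genotype entry, a gap of 0.857 of the range. A gap over 0.71 marks a sample as far from the others in a group of 5. Of 20 groups of 5 libraries examined, 3 were marked, where chance marks about 1 in 20 and so about 1. The groups by title and by genotype entry share ApoE-/- 1, 2 and 3, and both marks of the Tnfrsf17 row are the same value. The groups are therefore not independent, and nothing is read from 3 against 1.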

How the results depend on the processing

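By genotype entry, 95 loci in place of 712 met the criterion, 0 plasma cell genes did (in place of 2 filtered and 6 unfiltered), their median was -0.26 in place of -1.25, and Sdc1 (0.10) and Xbp1 (0.03) changed sign. With the 4 libraries whose labels agree, 3 against NPRC-/-ApoE-/- 3 alone, which is assumed to vary like the others, 1570 loci met it, with limma on log2(FPKM + 1) 175, without the filter 2287 and with a mean of at least 10 counts 1730. Of the plasma cell genes, 6 met it without the filter, 5 at a mean of 10 counts, and in the unfiltered fit 2 with limma at a pseudocount of 1 and 3 at 0.1. Leaving out 1 library gave 374 to 1592 loci, 1 to 3 filtered and 2 to 6 unfiltered plasma cell genes and medians of -1.85 to -0.99. The unfiltered count was 3 without ApoE-/- 2 and 2 without NPRC-/-ApoE-/- 2 or 3, and the filtered count was 1 without ApoE-/- 2, 3 or 4, which leave 5 genes past the filter. Irf4 ranged from -0.38 to 0.22, positive without ApoE-/- 2, and the Tnfrsf17 row from -0.25 to 0.02, positive without ApoE-/- 3. Jchain kept its direction in 19 settings and met the criterion in 18, of which 6 are unfiltered values because Jchain missed the filter there (the 4 libraries, with and without the block, and without ApoE-/- 2, 3 or 4). Same-numbered libraries did not deviate together (correlations -0.27, -0.13 and -0.01), which shows no pairing by number but cannot exclude one. With the replicate block on numbers 1 to 3, 0 of 5 filtered plasma cell genes met the criterion (2 without the block) and 4 of 10 unfiltered (6 without it). The causes were not tested.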
